A study of Mus musculus with 11 samples.

Results

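The RNA of 8 genes was followed across the cell classes of the mouse brain: Lrp1, Egfr, Stab1, Scarb1, Scarb2, M6pr, Igf2r and Anxa2. They encode receptors and binding proteins reported to take up or sort phosphorothioate antisense oligonucleotides (ASOs), were chosen by symbol, and were all present among the 25938 genes of the deposited count matrix. Gapmer ASOs, short modified DNA strands that direct RNase H to a target RNA, enter cells mainly by endocytosis. Phosphorothioate linkages make the strand bind many proteins, so several cell surface receptors can carry it inside. Only the part that leaves endosomes reaches RNA in the cytoplasm or the nucleus. The question here was where in the brain these receptors were transcribed and whether they differed between dosing groups. It was also how their levels stood beside the loss of Malat1, the nuclear long non-coding RNA that the ASO targets.

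The mice carried, per the labels, human transferrin receptor (TfR) knock-in alleles in homozygous form, in all 4 groups, and each of the 11 libraries held the brain nuclei of 1 mouse. Every mouse had 4 weekly intravenous doses and was sampled 72 h after the last. The control group received ATV:BACE1, which binds the TfR and carries no ASO, at 57 mg/kg (n = 3). OTV:Malat1, at 60 mg/kg, joins the Malat1 ASO to a TfR-binding molecule (n = 3), and nonTV:Malat1, at the same dose, joins it to a molecule that does not bind the TfR (n = 3). The remaining group, Malat1 ASO, had the free oligonucleotide at 2.5 mg/kg (n = 2). Replicate 1 of each group was a female of 2.33 months, replicate 4 a male of 2.57 months and replicate 5 a male of 2.33 months. The free ASO group holds replicates 1 and 5. Labels give the tissue as the posterior brain, whereas the deposited metadata give cortex and the strain C57BL/6J, and the files do not settle which holds.

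In the mm10 assembly the genes lie apart from each other, so no pair shares a promoter. The positions are from RefSeq (GRCm38.p6), and the strands and overlaps from the GENCODE vM21 annotation. Lrp1 is at chr10:127538157-127621148 and Stab1 at chr14:31139017-31168651, both on the minus strand. Egfr is at chr11:16752203-16913907 and Anxa2 at chr9:69453683-69491792, both on the plus strand. The scavenger receptor genes Scarb1 and Scarb2 share chromosome 5, at chr5:125277087-125341094 and chr5:92441311-92505657, both minus. M6pr is at chr6:122308720-122317680 on the plus strand and Igf2r at chr17:12682406-12769706 on the minus strand. An opposite-strand gene with its own counts overlaps 4 of them: Gm16217 with Lrp1, Egfros with Egfr, Nt5dc2 with Stab1 and Airn with Igf2r. Whether counting used the strand is not given in the sources used here, so reads of these pairs cannot be told apart.

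The promoters of Stab1, Anxa2 and Igf2r are printed because these genes were highest in different classes and differ in base composition. The classes were those named perivascular macrophages, vascular endothelium and vascular smooth muscle. Each is the 250 bases before the RefSeq start (GRCm38.p6), 5′ to 3′ on the gene's strand. The Stab1 window is an exception, since it starts at 31168642 and the gene span given above ends at 31168651, so its last bases lie inside that span. Capitals mark the GGGCGG motif in Anxa2 and Igf2r. In Stab1 they mark the CCAAT motif, which is met on the other strand.
Stab1, chr14:31168642-31168891, minus strand: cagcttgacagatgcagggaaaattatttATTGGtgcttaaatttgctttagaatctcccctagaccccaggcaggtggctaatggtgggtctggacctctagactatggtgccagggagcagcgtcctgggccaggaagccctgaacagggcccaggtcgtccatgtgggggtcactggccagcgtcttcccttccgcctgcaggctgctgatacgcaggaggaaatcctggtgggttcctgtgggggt
Anxa2, chr9:69453433-69453682, plus strand: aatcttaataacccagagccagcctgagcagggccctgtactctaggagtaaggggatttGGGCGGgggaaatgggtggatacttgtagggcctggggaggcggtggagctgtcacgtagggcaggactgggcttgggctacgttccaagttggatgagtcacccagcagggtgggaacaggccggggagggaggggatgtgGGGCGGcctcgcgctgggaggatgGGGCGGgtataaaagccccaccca
Igf2r, chr17:12769707-12769956, minus strand: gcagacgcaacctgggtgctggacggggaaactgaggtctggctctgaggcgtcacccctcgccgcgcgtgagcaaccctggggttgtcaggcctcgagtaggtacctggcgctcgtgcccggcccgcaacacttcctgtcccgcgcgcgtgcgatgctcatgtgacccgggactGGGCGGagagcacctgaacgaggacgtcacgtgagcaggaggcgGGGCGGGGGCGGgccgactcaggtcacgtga

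The table of promoters held 6 of the 8 genes, M6pr and Scarb1 being the others. The Igf2r window was the richest in CG pairs of the 3, with 27 and a GC content of 69.2%. Anxa2 had 9 CG pairs at 62.4% GC, and Stab1 had 5 at 57.2%. These compare with medians of 6 CG pairs and 52.4% GC over all 32851 promoter windows of that length. GGGCGG, searched on both strands, occurred 3 times in Anxa2 and 3 times in Igf2r, once each in Scarb2, Lrp1 and Egfr, and not in Stab1; 32.7% of all windows hold it. CCAAT, also on both strands, was in Stab1 alone of the 6, and in 33.8% of all windows. TATAAA was in Anxa2 alone of the 6 (12.4% of all windows), GGAAGT in Igf2r alone (19.7%), and the palindrome CACGTG occurred 2 times in Igf2r (6.02%). These matches describe letters and are not evidence of binding.

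The 11 libraries held 110304 nuclei, 7546 to 13840 each, and 33235994 to 43972886 unique molecular identifiers (UMIs, counted RNA molecules). The authors' predicted class names gave 10 classes, in which median UMIs per nucleus ran from 821 in vascular smooth muscle to 3926 in neurons. Neurons made up 76211 nuclei, perivascular macrophages 125. Names were checked against marker lists. The class named pericytes had a summed level of 10724 CPM (a gene's UMIs scaled to a common total of UMIs in each class sum) of endothelial markers against 5269 CPM of pericyte markers, and the class named vascular smooth muscle had 4191 CPM of pericyte markers against 995 CPM of its own, so these 2 names are used only as labels. Vascular endothelium (13203 CPM of its own markers) matched its name. The class named vascular smooth muscle held 330 nuclei, with a median class prediction score of 0.545, against 0.882 in vascular endothelium. The class named glia carried choroid plexus markers at 4351 CPM and ependymal markers at 1598 CPM. Of 108788 distinct barcodes 1495 occurred in more than 1 library. Levels below are CPM of the summed UMIs of a class in a library, as mean ± SD over libraries that held at least 20 nuclei of the class: 11 libraries for 8 classes and 8 for smooth muscle. The counts are not per gene length, so levels are compared within a gene only. Because classes were named from the same RNA, levels over classes are described without a test. In sums over all nuclei, fewer nuclei of a class and less RNA per nucleus cannot be told apart.

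Each receptor had its own distribution over classes, and no class led for more than 3 of the 8 genes. Among the 9 classes with library replicates, Lrp1, Stab1 and Scarb2 were highest in microglia, Egfr in astrocytes, Scarb1 and Anxa2 in vascular endothelium, and M6pr and Igf2r in smooth muscle. Neurons, the most abundant nuclei, were the lowest class for Scarb2, M6pr and Anxa2, yet held most of the counted molecules of 5 genes: Lrp1, Scarb1, Scarb2, M6pr and Igf2r. The spread was narrow for Scarb2, whose highest class was 3.92 times its lowest, and wide for Anxa2 (43.9 times), Egfr (41.8 times) and Igf2r (39.0 times). Stab1 spanned more still, its lowest class having no UMI in 8 of 11 libraries.

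**Figure D1:**
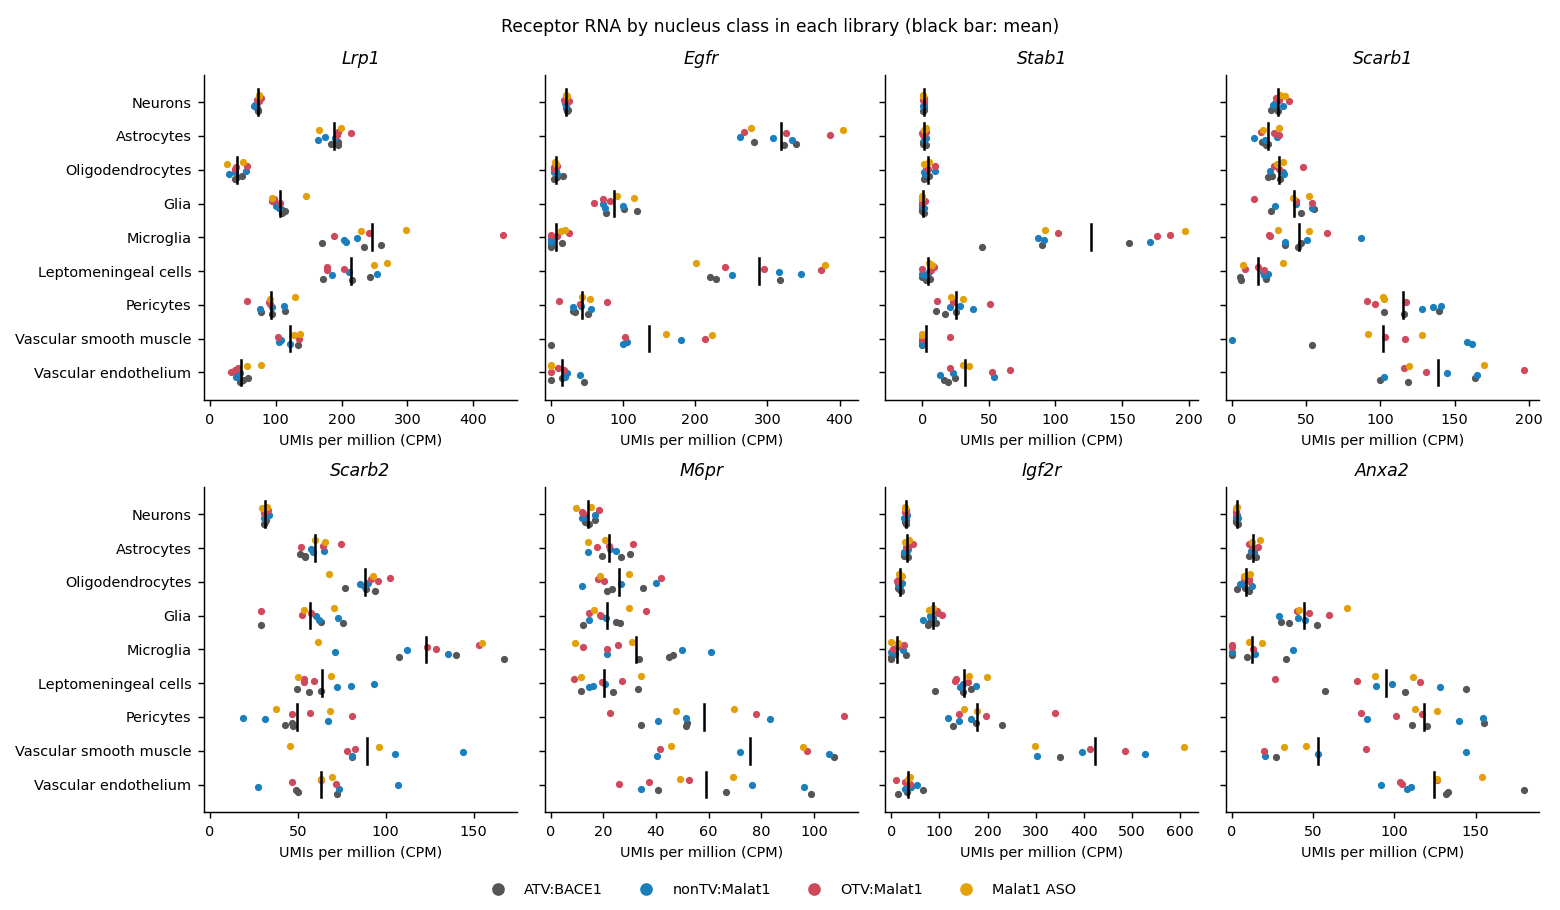
Levels of the 8 genes by cell class, in CPM on the horizontal axis (scales differ between panels); each point is the class sum of 1 library, coloured by dosing group, and black bars mark the mean. Egfr points are high in astrocytes and leptomeningeal cells and near 0 in microglia and oligodendrocytes, while Scarb2 points lie within a factor of 3.92 between class means.

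Lrp1 encodes a large endocytic receptor of the LDL receptor family that carries lipoproteins, proteases and many other ligands into cells. It was highest in microglia, at 246 ± 74.8 CPM (n = 11; lowest 171, median 230, highest 446), then in leptomeningeal cells at 215 ± 34.6 CPM (172, 212 and 270) and astrocytes at 188 ± 15.0 CPM (164, 193 and 214). The ranges of these 3 classes overlapped, and microglia exceeded leptomeningeal cells in 8 of 11 libraries. The highest microglial value was OTV:Malat1 replicate 4 and rested on 36 UMIs. Smooth muscle (122 ± 14.3 CPM), glia (107 ± 14.4 CPM) and pericytes (93.2 CPM) followed. Astrocytes lay above smooth muscle without overlap, the only such step between neighbours in the order of Lrp1. Neurons had 72.5 ± 3.10 CPM (66.4, 72.5 and 78.0), and vascular endothelium and oligodendrocytes were lowest, at 47.7 CPM (32.6 to 77.0) and 41.8 CPM (25.6 to 56.9). Of all 32365 Lrp1 UMIs, 80.3% were in neurons. Shares of nuclei with a UMI were compared after thinning to 1000 UMIs, which leaves out shallower nuclei: 61.8% of microglia, 55.0% of oligodendrocytes, 52.5% of endothelial nuclei, 57.6% of perivascular macrophages, 37.4% of leptomeningeal cells, 23.1% of astrocytes and 3.03% of neurons. Among the deeper nuclei, at least 1 Lrp1 UMI was seen in 19.8% of microglia, 17.3% of leptomeningeal cells, 17.0% of astrocytes, 7.19% of neurons and 3.72% of oligodendrocytes. Without thinning, over all nuclei, neurons had the largest share of these 5 classes, 27.0%, against 22.6% in microglia, at a median depth of 3926 against 883 UMIs. With nuclei under 1000 UMIs left out, leptomeningeal cells led by little, at 200 CPM against 197 CPM in microglia.

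Egfr encodes the epidermal growth factor receptor, a receptor tyrosine kinase that is internalised after ligand binding. Its level was 319 ± 46.5 CPM in astrocytes (n = 11; lowest 263, median 323, highest 405) and 288 ± 63.1 CPM in leptomeningeal cells (201, 295 and 380). Astrocytes were above leptomeningeal cells in 9 of 11 libraries, with overlapping ranges. Both stood above glia (88.0 ± 19.2 CPM), pericytes (43.0 ± 17.2 CPM), neurons (21.9 ± 1.94 CPM) and endothelium (16.0 ± 16.3 CPM). Smooth muscle had 136 ± 73.7 CPM over 8 libraries, from 0 to 224. Microglia (7.66 ± 9.70 CPM, with no UMI in 6 of 11 libraries) and oligodendrocytes (7.63 ± 3.74 CPM) were lowest. Perivascular macrophages, pooled over libraries because few were caught, had 24 Egfr UMIs, or 173 CPM with an exact Poisson 95% interval of 111 to 258 that covers counting error only. Astrocytes held 42.4% and neurons 47.7% of the 16474 Egfr UMIs. Called doublets, 13.8% of the nuclei named neurons, are part of that share. Without them the Egfr level was 17.6 ± 2.18 CPM in neurons and 328 ± 48.1 CPM in astrocytes. In nuclei thinned to 1000 UMIs the share with an Egfr UMI was 26.6% in astrocytes and 0.54% in oligodendrocytes, and without thinning 35.2% and 0.60%. Egfros, the opposite-strand gene, was also high in astrocytes, at 84.1 ± 21.3 CPM, against 6.22 CPM in neurons.

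Stab1 and Scarb1 are scavenger receptors: stabilin-1 clears modified proteins in macrophages and sinusoidal endothelium, and the Scarb1 product, SR-BI, takes up cholesteryl esters from HDL. Their leading classes differed, and both were also found in endothelium and pericytes. Stab1 was by far densest in perivascular macrophages, where 185 UMIs in 125 pooled nuclei gave 1334 CPM (exact Poisson 95% interval 1149 to 1541, counting error only). Among the classes with library replicates it was highest in microglia, at 127 ± 51.3 CPM (n = 11; lowest 44.6, median 102, highest 197). Endothelium (32.4 ± 17.3 CPM) was below microglia in 11 of 11 libraries, although the ranges overlapped, and pericytes had 25.2 ± 11.7 CPM. The remaining classes were at 4.10 CPM or less, down to 1.10 ± 0.303 in neurons and 0.444 in glia, where 8 of 11 libraries had no UMI. A Stab1 UMI was seen in 62.3% of perivascular macrophages (33 of 53) and 14.9% of microglia after thinning to 1000 UMIs, against 0.10% of neurons. The unthinned shares were 68.8%, 13.5% and 0.44%. With 979 UMIs in all libraries together, Stab1 was the sparsest of the 8 genes.

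Scarb1 was highest in vascular endothelium, at 139 ± 31.4 CPM (n = 11; lowest 99.9, median 130, highest 197). Pericytes (115 ± 18.1 CPM) and smooth muscle (102 ± 54.0 CPM) overlapped it. Microglia (45.2 ± 18.3 CPM), glia (41.7 ± 13.2 CPM), oligodendrocytes (32.0 ± 6.52 CPM), neurons (31.3 ± 3.70 CPM) and astrocytes (24.4 ± 5.62 CPM) lay close together, and leptomeningeal cells were lowest at 17.4 ± 9.19 CPM. Thinned to 1000 UMIs, 12.8% of endothelial nuclei had a Scarb1 UMI, and 15.6% without thinning. The Scarb1 order thus put the classes named after vessels on top, as did that of the reference gene Tfrc, the mouse symbol for the transferrin receptor. Tfrc had 283 ± 78.6 CPM in endothelium, 230 ± 59.7 CPM in pericytes and 34.4 ± 3.88 CPM in neurons.

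Scarb2, M6pr and Igf2r serve the route to the lysosome. Scarb2 encodes LIMP-2, the lysosomal membrane protein that delivers glucocerebrosidase, and M6pr and Igf2r encode the cation-dependent and cation-independent mannose 6-phosphate receptors, which ferry tagged hydrolases from the Golgi. Scarb2 was the most even of the 8 genes: 123 ± 33.4 CPM in microglia (n = 11; lowest 61.5, median 129, highest 167), 88.4 ± 9.39 CPM in oligodendrocytes (67.8, 89.9 and 102), 59.6 ± 7.04 CPM in astrocytes and 31.5 ± 1.21 CPM in neurons. Pooled perivascular macrophages had 151 CPM from 21 UMIs (exact Poisson 95% interval 93.8 to 232), against 126 CPM in microglia pooled the same way (107 to 147). M6pr ran from 75.7 ± 29.6 CPM in smooth muscle, 58.9 ± 24.6 CPM in endothelium and 58.4 ± 25.3 CPM in pericytes down to 14.0 ± 2.67 CPM in neurons. Neurons were thus lowest for both genes. The smooth muscle level of M6pr rests on 8 libraries of few nuclei, and with nuclei under 1000 UMIs left out that class kept 20 nuclei in 1 library only and was not ranked, leaving endothelium first at 69.2 CPM.

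Igf2r, whose product also clears insulin-like growth factor 2, had a steeper order. Its level was 423 ± 110 CPM in smooth muscle (n = 8; lowest 298, median 405, highest 608), 179 ± 62.7 CPM in pericytes (n = 11; 117, 167 and 340) and 151 ± 27.7 CPM in leptomeningeal cells. The ranges of smooth muscle and pericytes overlapped, and with nuclei under 1000 UMIs left out smooth muscle kept 20 nuclei in 1 library only and was not ranked, leaving pericytes first at 160 CPM. Glia (85.8 ± 11.3 CPM) lay above endothelium (35.2 ± 15.8 CPM) without overlap, and neurons (29.6 ± 1.78 CPM) above oligodendrocytes (17.3 ± 3.38 CPM) without overlap. Microglia were lowest at 10.8 ± 11.7 CPM, with no UMI in 4 of 11 libraries. Airn, the imprinted antisense RNA that overlaps Igf2r, had much the same order, with 1032 ± 270 CPM in smooth muscle, 389 ± 63.0 CPM in pericytes, 68.0 CPM in neurons and 7.45 CPM in microglia. Because strand use is unstated, the share of Airn molecules within the Igf2r count cannot be told.

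Anxa2 encodes annexin A2, a calcium-dependent membrane-binding protein at the cell surface and on endosomes. It was highest in endothelium, at 124 ± 25.5 CPM (n = 11; lowest 91.7, median 126, highest 180), with pericytes at 118 ± 25.1 CPM and leptomeningeal cells at 94.7 ± 32.9 CPM. Smooth muscle had 53.0 ± 42.3 CPM and glia 44.6 ± 12.5 CPM, and glia stood above astrocytes (13.2 ± 2.07 CPM) without overlap. Microglia (12.4 ± 13.2 CPM), oligodendrocytes (8.37 ± 2.94 CPM) and neurons (2.83 ± 0.620 CPM) were lowest. An Anxa2 UMI was seen in 12.4% of endothelial and 0.33% of neuronal nuclei thinned to 1000 UMIs, and in 13.7% and 1.28% without thinning. Anxa2 and Scarb1 thus had the same leading pair of classes, and differed in leptomeningeal cells, near the top for Anxa2 and at the bottom for Scarb1.

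For each member the genes most like it over 97 class-by-library sums were ranked by Pearson's r of log2(CPM + 1) among 8809 genes with at least 50 CPM in some class. The sums share libraries, depth and class names, so r is a description. Airn was the gene most like Igf2r (0.916), ahead of Slc16a12 (0.848) and Gm15261 (0.822). Stab1 was closest to Tpm3 (0.866), Srgap2 (0.849) and Tal1 (0.845), and Anxa2 to mt-Nd4 (0.882), Itih5 (0.871) and Ahnak (0.864). Lrp1 followed Dock11 (0.828), Tmem164 (0.818) and Mir99ahg (0.795), while Egfr followed Rora (0.801), Eda (0.777) and Slc7a2 (0.772). Scarb2 was closest to Cd9 (0.798), Itgav (0.755) and Srsf2 (0.755). Scarb1 was closest to Hmgn1 (0.796), Apbb2 (0.758) and S100a13 (0.718), and M6pr to Eif4g2 (0.736), Pomp (0.735) and Rps6 (0.723).

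None of the 8 receptors differed from ATV:BACE1 by a change that passed the test, with OTV:Malat1, nonTV:Malat1 or the free ASO. The question of this comparison is whether the receptors differed between the ASO groups and the control. No group went undosed, so a shift shared by all groups would not be seen. Summed counts were fitted with edgeR's quasi-likelihood test over all genes, with Benjamini-Hochberg adjustment and a threshold of 0.05. Over all nuclei, 0 of 8 members were called in each of the 3 comparisons with ATV:BACE1, by edgeR or by DESeq2, and 0 of 8 had an unadjusted p under 0.05. Of all 21409 genes tested, edgeR called 0% in each of these comparisons. DESeq2 called 0.00467% with OTV:Malat1, 0% with nonTV:Malat1 and 0.00934% with the free ASO, and the shares at an unadjusted p under 0.05 were 0.752%, 0.901% and 1.75% in the same order. Even Malat1, the target, was not called over all nuclei by edgeR. Its change under OTV:Malat1 was -0.79 on the log2 scale (SE 0.136), with an edgeR adjusted p of 1.0. The 3 comparisons share their control libraries. In all 3, the share of genes at an unadjusted p under 0.05 was below a fraction of 0.05, so the test passed fewer genes than its threshold allows. These fits had no term for the replicate number, although libraries of the same number deviated together (r from 0.542 to 0.849). The lack of a call therefore does not show that levels were equal.

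**Figure D2:**
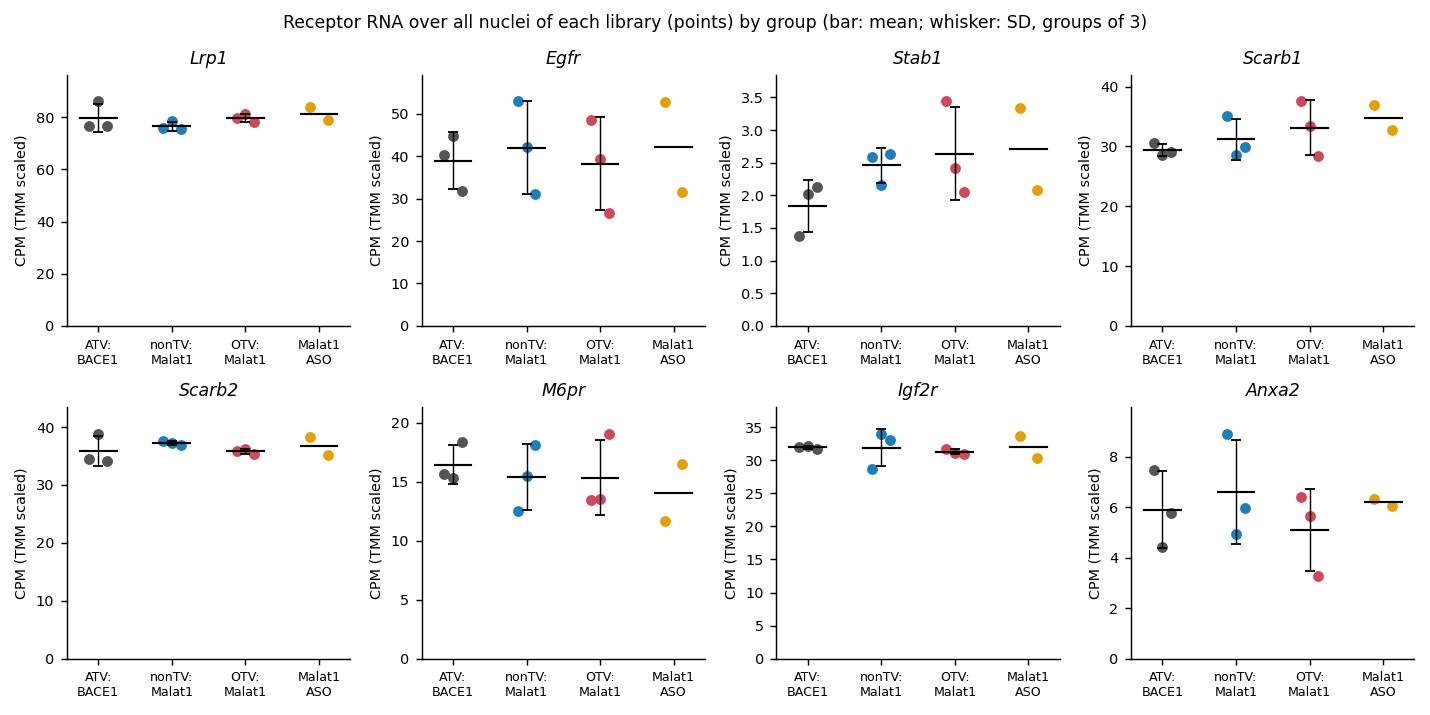
TMM-normalised CPM of the 8 genes over all nuclei in each of the 11 libraries, by dosing group, with bars at the group mean and whiskers of 1 SD in groups of 3 libraries. Lrp1 lies between 75.3 and 86.1 CPM in every library, whereas Stab1 reaches 3.44 CPM at the most.

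Lrp1 was the best measured gene. Its TMM-normalised level over all nuclei was 76.8, 86.1 and 76.6 CPM in ATV:BACE1 replicates 1, 4 and 5, and 79.8, 81.1 and 78.1 CPM in the same replicates of OTV:Malat1. It was 75.9, 78.6 and 75.3 CPM in nonTV:Malat1, and 84.0 and 78.9 CPM in replicates 1 and 5 of the free ASO. The groups overlapped, and the change under OTV:Malat1 was -0.0025 on the log2 scale (SE 0.0765), with a 95% interval of -0.17 to 0.17. Scarb2 and Igf2r were measured almost as tightly. Scarb2 was 34.5, 38.8 and 34.1 CPM in ATV:BACE1 and 35.8, 36.3 and 35.3 CPM in OTV:Malat1, a log2 change with a 95% interval of -0.18 to 0.18. Igf2r was 32.0, 32.1 and 31.7 CPM in ATV:BACE1 and 31.7, 31.1 and 31.0 CPM in OTV:Malat1, with an interval of -0.22 to 0.16. Expressed as folds, the intervals of these 3 genes together span 0.856 to 1.13, in a mixture of nuclei whose molecules of these genes were mostly neuronal.

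Stab1 had the largest estimated change in each of the 3 comparisons, in the same direction, and did not pass the test. It was 1.38, 2.02 and 2.12 CPM in ATV:BACE1 replicates 1, 4 and 5, against 3.44, 2.43 and 2.05 CPM in OTV:Malat1, 2.59, 2.15 and 2.64 CPM in nonTV:Malat1, and 3.34 and 2.09 CPM in the free ASO. Only nonTV:Malat1 lay wholly above the control, and the lowest OTV:Malat1 and free ASO libraries, both replicate 5, lay below the highest control library, also replicate 5. The log2 changes were 0.53 (SE 0.262), 0.43 (SE 0.264) and 0.56 (SE 0.290), with an edgeR adjusted p of 1.0 in each. The shared controls tie these 3 values to each other. In microglia, Stab1 was 60.3, 124 and 217 CPM in ATV:BACE1 and 232, 246 and 141 CPM in OTV:Malat1, groups that overlapped.

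The remaining genes did not pass either. Egfr was 40.4, 44.8 and 31.8 CPM in ATV:BACE1 replicates 1, 4 and 5 and 48.6, 39.4 and 26.7 CPM in OTV:Malat1, lowest in replicate 5 in both, with a log2 change of -0.03 (SE 0.263). M6pr changed by -0.10 (SE 0.187) and Anxa2 by -0.21 (SE 0.286) under OTV:Malat1. Scarb1 was 30.5, 28.6 and 29.1 CPM in ATV:BACE1 and 37.5, 33.5 and 28.4 CPM in OTV:Malat1, a change of 0.17 (SE 0.119). With the free ASO it was 37.0 and 32.7 CPM, above the 3 control libraries, a change of 0.24 (SE 0.132) with an edgeR adjusted p of 1.0. Libraries without overlap numbered 0 of 8 members for OTV:Malat1, 1 of 8 (Stab1) for nonTV:Malat1 and 1 of 8 (Scarb1) for the free ASO. Over all genes, libraries did not overlap in 3.08%, 4.05% and 12% of tests. The last share is larger because only 2 libraries had the free ASO, and 1 gene of 8 is near it.

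Within classes, edgeR called 0 of 48 member tests in each of the 3 comparisons with ATV:BACE1, and DESeq2 also called 0. Of all 77917 gene tests in the classes, edgeR called 0.00513% with OTV:Malat1 and 0% with both others, and DESeq2 called 0.0077%, 0% and 0.00128%. At an unadjusted p under 0.05 the members numbered 0 of 48 in each comparison, where 2.27%, 2.05% and 2.61% of all tests passed. All 8 genes were abundant enough to test in neurons and oligodendrocytes, 7 in astrocytes, glia and pericytes, 5 in leptomeningeal cells and 3 in microglia and endothelium, which makes the 48 tests. The changes under OTV:Malat1 ran from -0.98 to 1.03 on the log2 scale with a median of -0.03. The tightest was that of Lrp1 in neurons, with a 95% interval of -0.17 to 0.18. The widest belonged to sparse counts: Stab1 in oligodendrocytes, at 1.03 (SE 0.759), and M6pr in endothelium, at -0.98 (SE 0.566). Stab1 averaged 0.834 CPM over libraries in the authors' cluster 3, which held 90.7% of the nuclei named oligodendrocytes. The 3.85% outside clusters 3 and 5 had 54.6 to 62.6 CPM with OTV:Malat1 and 0 to 22.3 CPM in ATV:BACE1. In the cells where they were high, Lrp1 changed by -0.0079 (SE 0.144) and Egfr by -0.02 (SE 0.205) in astrocytes, and Scarb1 by 0.09 (SE 0.334) in endothelium. In microglia, its highest class, Lrp1 was 317, 359 and 238 CPM in ATV:BACE1 and 248, 591 and 334 CPM in OTV:Malat1, groups that overlapped.

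**Figure D3:**
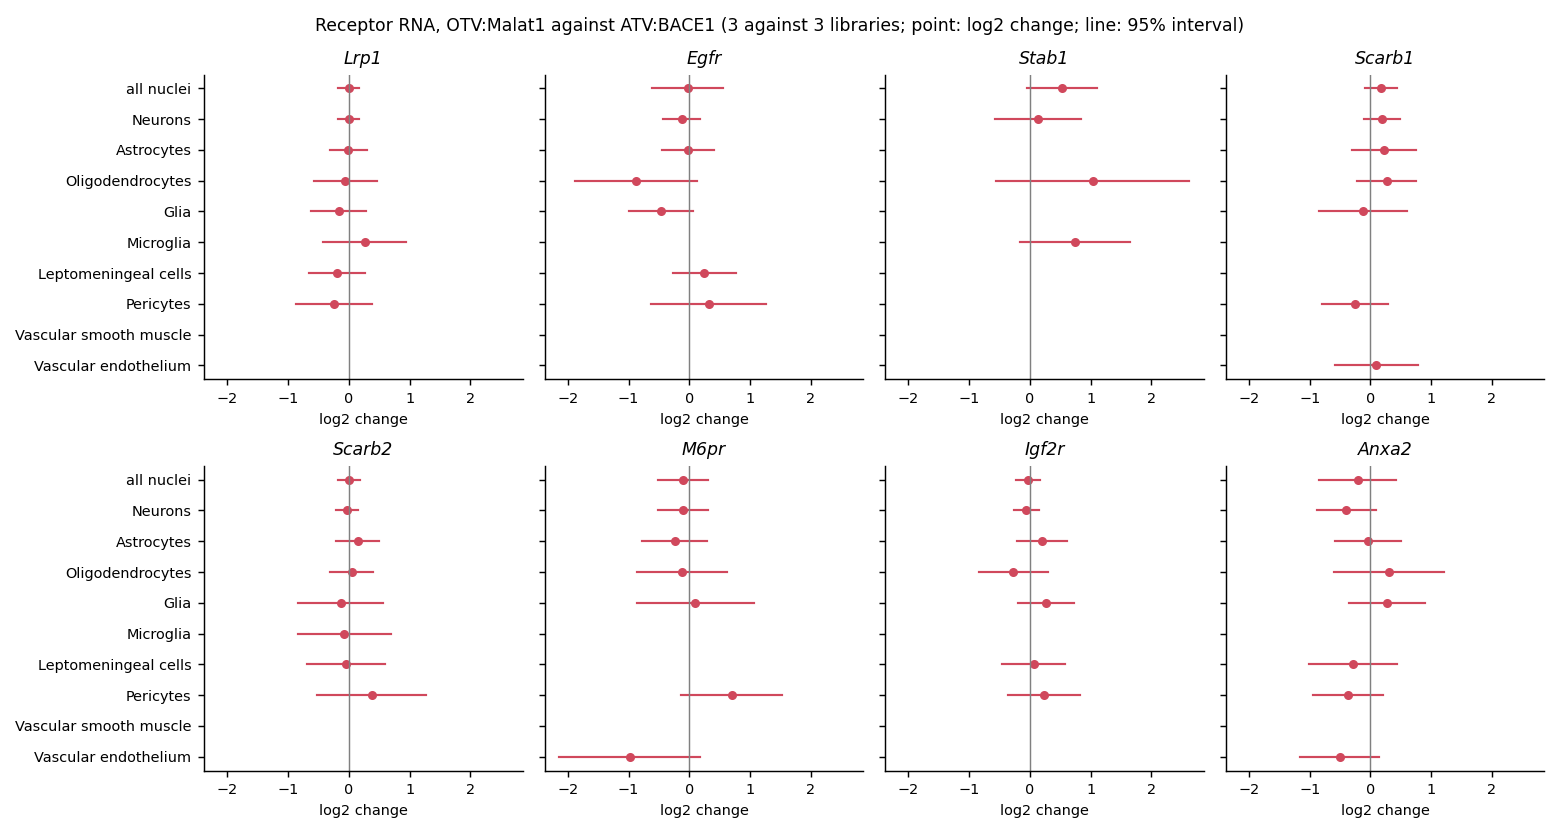
Fitted log2 changes of the 8 genes against ATV:BACE1 in each class where they were tested, with 95% intervals, for OTV:Malat1 (horizontal axis, 3 against 3 libraries). Intervals cross 0 for all 8 genes in each class drawn, and the narrowest within a class is that of Lrp1 in neurons, -0.17 to 0.18.

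Non-overlapping libraries occurred in 3 of 48 member tests for OTV:Malat1, 3 of 48 for nonTV:Malat1 and 5 of 48 for the free ASO. Over all genes in the class fits those shares were 6.18%, 6.42% and 15.3%, so the members' shares were near the background for both conjugates and below it for the free ASO. Anxa2 in vascular endothelium was among them for both conjugates. It was 165, 168 and 230 CPM in ATV:BACE1 replicates 1, 4 and 5, against 125, 123 and 153 CPM in OTV:Malat1 and 132, 135 and 115 CPM in nonTV:Malat1, and 152 and 192 CPM in the free ASO. Both conjugate groups were below the control libraries and the free ASO overlapped them, with log2 changes of -0.51 (SE 0.314) and -0.57 (SE 0.312) for the conjugates and an edgeR adjusted p of 1.0 in each.

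The direct comparisons between ASO forms gave no call for a member either. OTV:Malat1 against nonTV:Malat1 had 0 of 8 over all nuclei and 0 of 49 within classes by edgeR, beside 0% and 0.00252% of all tests, and 0 by DESeq2, beside 0.00467% and 0.00503%. The 49th is Igf2r in smooth muscle, where too few ATV:BACE1 libraries had 20 nuclei. OTV:Malat1 against the free ASO had 0 of 8 and 0 of 49 by edgeR, beside 0% and 0.00378%, and 0 by DESeq2, beside 0.00934% and 0.00503%. No member reached an unadjusted p under 0.05 in either, where 0.766% and 1.74% of all tests did against nonTV:Malat1 and 0.621% and 1.95% against the free ASO. Libraries without overlap numbered 1 of 8 and 7 of 49 against nonTV:Malat1 (3.53% and 6.07% of all genes) and 0 of 8 and 5 of 49 against the free ASO (9.99% and 14.2%). The 7 of 49 were above their background, but Scarb2 gave 4 of them from the same mice, so these tests are not independent. Scarb2 was lower with OTV:Malat1 in glia, leptomeningeal cells and neurons, and higher in oligodendrocytes. Its estimates there were -0.45 (SE 0.317), -0.56 (SE 0.283), -0.05 (SE 0.080) and 0.06 (SE 0.167) on the log2 scale, with edgeR adjusted p of 1.0 in each.

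Genes that work with these receptors did not pass the test either. The lists counted were 13 LDL receptor family and sorting receptors, 12 EGF receptor family genes and ligands, 15 other scavenger receptors, 17 mannose 6-phosphate sorting genes, 9 annexins and annexin A2 partners, and 17 clathrin endocytosis genes. In the edgeR fits, 0 genes of each list rose and 0 fell in any comparison. Over all nuclei the median log2 changes under OTV:Malat1 were 0.03 for the LDL receptor list, 0.03 for the EGF receptor list, 0.21 for the scavenger list over its 12 tested genes, 0.05 for the mannose 6-phosphate list, 0.04 for the annexins and 0.02 for clathrin genes, beside 0.01 over all genes. At an unadjusted p under 0.05 over all nuclei, where 0.752% of all genes passed under OTV:Malat1 against ATV:BACE1, 1 gene of the LDL receptor list did so and 0 of the other 5 lists. In the same sums 1 scavenger gene passed with nonTV:Malat1 against ATV:BACE1 and 1 with OTV:Malat1 against each of nonTV:Malat1 and the free ASO, beside 0.901%, 0.766% and 0.621% of all genes. Within classes, 2.27% of all tests passed under OTV:Malat1 against ATV:BACE1. The lists in order had 3 of 77, 0 of 44, 1 of 26, 3 of 99, 0 of 48 and 1 of 129. Other comparisons gave at most 4 of 78, the LDL receptor list in OTV:Malat1 against nonTV:Malat1, beside 1.74% of all tests. Annexins had 3 of 48 with nonTV:Malat1 against ATV:BACE1 and with OTV:Malat1 against the free ASO, beside 2.05% and 1.95%. With the replicate number as a block, Lrp1b, an LDL receptor family member, was called in microglia of nonTV:Malat1, with a log2 change of -0.99 (SE 0.203, edgeR adjusted p = 0.0067). That fit called 0.0257% of all tests within classes, and the blocked fits for OTV:Malat1 and the free ASO called 0.0128% and 0.0488%, with 0 members in each.

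Malat1, unlike the receptors, passed the test in some classes. Under OTV:Malat1 it fell by 2.44 on the log2 scale in oligodendrocytes (SE 0.197, edgeR adjusted p = 2.87e-06), by 1.84 in endothelium (SE 0.179, edgeR adjusted p = 2.83e-07) and by 0.93 in microglia (SE 0.131, edgeR adjusted p = 0.0019). Estimates in the other classes did not pass without a block: -1.56 in astrocytes (SE 0.276, edgeR adjusted p = 0.368), -0.81 in pericytes (SE 0.155, edgeR adjusted p = 0.0897), -0.70 in neurons, -0.51 in glia and -0.33 in leptomeningeal cells. With the replicate block astrocytes, neurons and pericytes passed as well, giving 6 of 8 classes, and DESeq2 also gave 6. With OTV:Malat1 replicate 1 left out, microglia no longer passed (edgeR adjusted p = 0.118), nor did they with nuclei under 1000 UMIs left out (edgeR adjusted p = 0.514) or without the low-count filter (edgeR adjusted p = 1.0). Astrocytes did pass with total counts in place of TMM (edgeR adjusted p = 0.00028) and without the filter (edgeR adjusted p = 0.0020). In nonTV:Malat1 the lowest estimates were -0.43 in endothelium and -0.35 in oligodendrocytes, with no class called. With the free ASO the lowest was -0.72 in endothelium (SE 0.198, edgeR adjusted p = 0.325), which passed with the block (-0.81, edgeR adjusted p = 0.0011).

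Set beside this loss, receptor levels in control mice fell into no shared order. Oligodendrocytes, the class with the largest loss under OTV:Malat1, had the lowest Lrp1 of the 8 classes in ATV:BACE1, while endothelium, the next, had the highest Scarb1, M6pr and Anxa2 and low Lrp1 and Egfr. Microglia, with the highest Lrp1, Stab1 and Scarb2, came after astrocytes. Spearman's rho was taken over 8 classes between the mean log2(CPM + 1) in ATV:BACE1 and the Malat1 log2 change, so that a negative rho means a larger loss where the gene was higher. For OTV:Malat1 it was 0.524 for Lrp1, 0.476 for Egfr, 0.595 for Igf2r and 0.0238 for Anxa2. It was -0.500 for Stab1, -0.262 for Scarb1, -0.524 for Scarb2 and -0.619 for M6pr. Tfrc, the gene symbol of the mouse for the transferrin receptor, had -0.357. How RNA of the human knock-in alleles enters the Tfrc count was not tested. The 8 points share libraries, control mice, depth and free RNA, and no p is given.

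**Figure D4:**
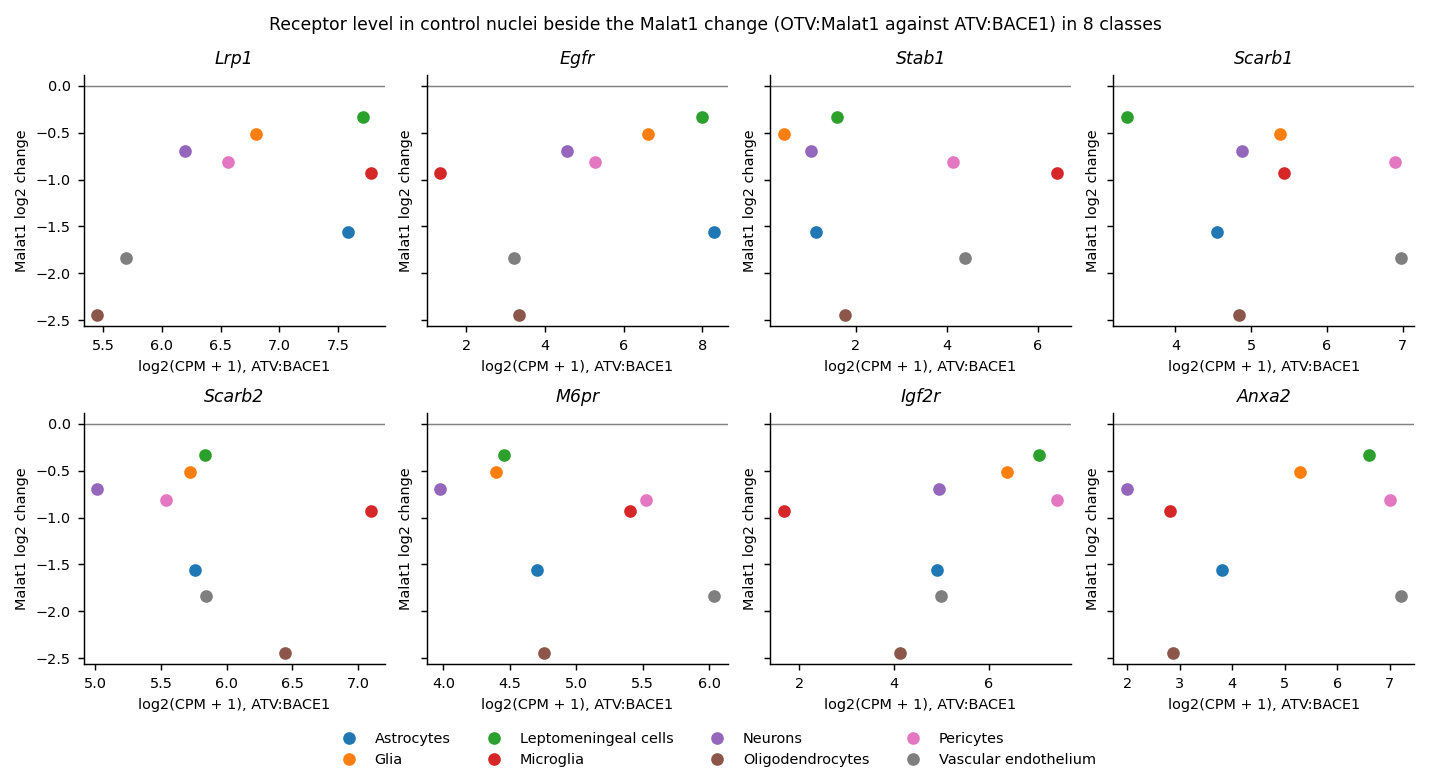
Malat1 log2 change against ATV:BACE1 (vertical axis) beside the control level of each of the 8 genes as log2(CPM + 1) (horizontal axis), 1 point per class, for OTV:Malat1. Oligodendrocytes are the lowest point in each of the 8 panels, at a change of -2.44, and lie furthest left in that of Lrp1.

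The other 2 forms of the ASO gave other values. With nonTV:Malat1 rho was 0.786 for Egfr and 0.429 for Lrp1, and -0.738 for M6pr, -0.714 for Stab1, -0.643 for Scarb1 and -0.619 for Scarb2. With the free ASO the lowest values were -0.786 for Anxa2 and -0.690 for both Scarb1 and Igf2r. M6pr and Tfrc, which like Anxa2 and Scarb1 were highest in endothelium among these classes, had less negative values. Lrp1 was at -0.0238 and Egfr at 0.119. After endothelium the next lowest Malat1 change with the free ASO was -0.34 in pericytes, so these rho values rank small differences. The class named pericytes held more endothelial than pericyte marker RNA. Its point and that of endothelium therefore do not stand for clearly separate cell types. Using the authors' 10 clusters in place of classes moved several values. For OTV:Malat1, Scarb1 went from -0.262 to 0.770 and Lrp1 from 0.524 to -0.103.

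Within a class, nuclei in which a receptor UMI was seen did not differ from the others in Malat1 loss by a difference that passed the test. Nuclei were thinned to 1000 UMIs, shallower ones being left out (55.0% of oligodendrocytes, 23.1% of astrocytes and 3.03% of neurons), and the log2 ratio of mean Malat1 in nuclei with the receptor to that in nuclei without it was compared with the same ratio in ATV:BACE1. Of 33 such comparisons 0 passed at an adjusted p of 0.05, the lowest adjusted exact permutation p being 0.471. The exact two-sided test cannot go below 0.1 with 3 libraries against 3, nor below 0.333 with 2 against 2, so the design could not reach the threshold. In astrocytes the Lrp1 ratio was -0.12 ± 0.0363 with OTV:Malat1 (n = 3) against -0.03 ± 0.0353 in ATV:BACE1 (n = 3; exact p = 0.1), and the Egfr ratio -0.06 ± 0.00877 against 0.02 ± 0.0490 (exact p = 0.1). Without called doublets the Egfr ratios overlapped, at 0.02 ± 0.0423 against 0.03 ± 0.0263 (exact p = 0.9), while the Lrp1 ratios stayed apart. Thinning is a random draw, made anew when doublets were left out, so changes between these settings mix the draw with the doublets. Called doublets were 2.48% of astrocytes. In neurons the Scarb1 ratio was 0.0032 ± 0.0402 with OTV:Malat1 against -0.11 ± 0.0256 in ATV:BACE1 (exact p = 0.1). That difference of 0.12 became 0.09 without called doublets, with overlapping libraries (exact p = 0.4), and 0.03 without thinning (exact p = 0.1). With the free ASO the Scarb1 ratio in neurons differed from control by 0.11 (exact p = 0.1), by 0.04 without called doublets (exact p = 0.6), by 0.02 with thinning to 500 UMIs (exact p = 0.7) and by 0.05 without thinning (exact p = 0.1). At 500 UMIs the difference with OTV:Malat1 was 0.11 (exact p = 0.1). The Lrp1 ratio in astrocytes differed with the free ASO by 0.06 (exact p = 0.1), in the direction opposite to OTV:Malat1. For nonTV:Malat1 the Igf2r ratio in neurons was -0.13 ± 0.0164 against -0.06 ± 0.0119 in ATV:BACE1 (exact p = 0.1). That difference of -0.08 became 0.0012 without called doublets, with overlapping libraries.

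The difference was largest for Lrp1 in oligodendrocytes, of the 33 compared. In OTV:Malat1 replicates 1 and 4 the 27 and 23 nuclei with Lrp1 had 30.5 and 21.1 Malat1 UMIs per 1000, against 15.4 and 12.9 in the 954 and 576 nuclei without. The log2 ratios were 0.99 and 0.71, compared with -0.31 and -0.28 in ATV:BACE1 replicates 1 and 4 and -0.40 and -0.24 with the free ASO. The 1 nonTV:Malat1 library with enough nuclei, replicate 5, had 0.14 from 21 nuclei with Lrp1. The nuclei with Lrp1 thus retained more Malat1 in both OTV:Malat1 libraries that could be compared, while the difference of 1.14 had an exact permutation p of 0.333, the smallest that 2 libraries against 2 allow. Other members in this class gave differences that varied with the thinning. Scarb2 under OTV:Malat1 differed from control by 0.10 at 1000 UMIs, by -0.41 at 500 and by 0.23 without thinning (exact p = 0.1 in each), and by -0.19 without called doublets (exact p = 0.3), so its sign turned. Each thinned setting was a new random draw, and 0.838% of this class were called doublets. No difference in these alternatives passed the adjustment, and with so few libraries none could, so this outcome says nothing of robustness. Without thinning Igf2r differed by 0.68 (2 against 2 libraries, exact p = 0.333) and Scarb1 by 0.32 (exact p = 0.1).

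The class named oligodendrocytes held more than 1 kind of nucleus, and Lrp1 differed between them. Of its 14321 nuclei, 12991 (90.7%) were in the authors' cluster 3 and 779 (5.44%) in cluster 5, which had a summed level of 1113 CPM of the oligodendrocyte precursor markers Pdgfra, Cspg4 and Vcan, against 39.8 CPM in cluster 3. Markers of mature oligodendrocytes were also present in cluster 5, at 6383 CPM against 13058 CPM in cluster 3. Lrp1 was 21.4 ± 7.66 CPM in cluster 3 (n = 11 libraries, 9.63 to 37.1) and 146 ± 17.6 CPM in cluster 5 (121 to 177), without overlap. The other 551 nuclei (3.85%) had 96.7 ± 26.3 CPM, and 17.4% of them were called doublets. Clusters 3 and 5 were deposited and rest on the same RNA, so their Lrp1 levels are described without a test. Cluster 3 gave 45.1% of the oligodendrocyte nuclei with an Lrp1 UMI and cluster 5 gave 33.5%.

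**Figure D5:**
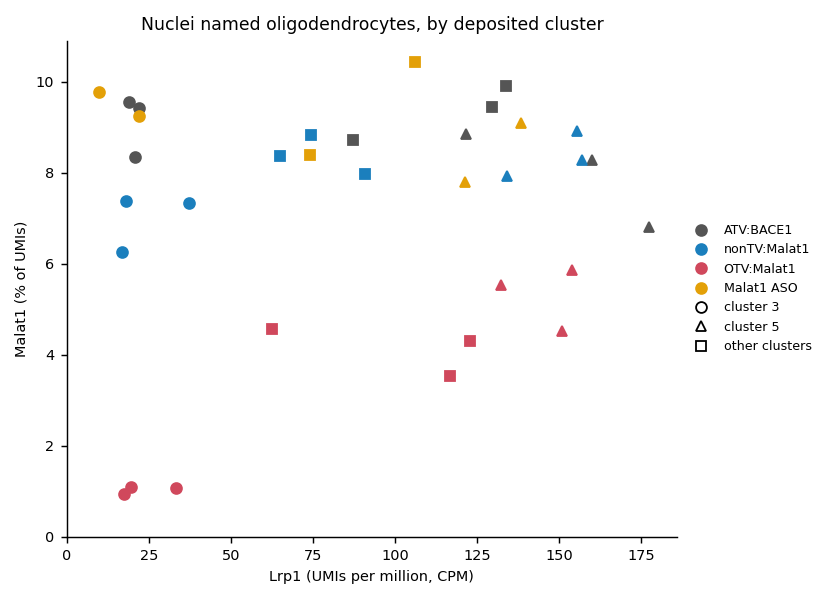
Malat1 as percent of UMIs (vertical axis) against Lrp1 in CPM (horizontal axis) in the nuclei named oligodendrocytes; each point is 1 library and 1 deposited cluster or the other clusters, marked by shape and coloured by dosing group. Cluster 3 points lie at low Lrp1, with a mean of 1.03% Malat1 under OTV:Malat1, and cluster 5 points at high Lrp1, with a mean of 5.30%.

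Malat1 loss differed between the same clusters. In cluster 3 Malat1 took 9.11 ± 0.668% of UMIs in ATV:BACE1 (n = 3), 6.99 ± 0.637% in nonTV:Malat1 (n = 3), 9.51 ± 0.381% with the free ASO (n = 2) and 1.03 ± 0.0805% in OTV:Malat1 (n = 3). The OTV:Malat1 share was 11.3% of the control share and the nonTV:Malat1 share 76.7%. In cluster 5 the same groups had 7.97 ± 1.05% in ATV:BACE1 and 5.30 ± 0.707% in OTV:Malat1, or 66.5% of control, and nonTV:Malat1 stood at 105% and the free ASO at 106%. Median depth also differed, at 910 UMIs per nucleus in cluster 3 and 1946 in cluster 5. Within cluster 3 alone, an alternative chosen after seeing the data and run without thinning, the log2 Malat1 ratio of nuclei with to nuclei without an Lrp1 UMI was 0.10 ± 0.132 with OTV:Malat1 (n = 3) and -0.06 ± 0.0159 in ATV:BACE1 (n = 3). That difference was 0.16 (exact permutation p = 0.2), and it was also 0.16 with nonTV:Malat1 (exact permutation p = 0.1). Over the whole class, also without thinning and with the same 3 against 3 libraries, it was 1.11 (exact permutation p = 0.1), there with at least 20 nuclei on each side in place of at least 5 with an Lrp1 UMI.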

How the data were processed

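The members and the gene lists were chosen with earlier results of these data known. The authors deposited a sparse matrix of UMI counts, whole numbers without normalization per the file headers, and metadata with a class name, cluster, batch number, doublet call, mitochondrial percent and, as a fraction, the score of the class prediction. The submitters' processing notes name mm10, Cell Ranger 5.0.0 and Seurat 4. Deposited nuclei had at least 499 UMIs and at most 2.39% mitochondrial counts, a filter not stated in the sources used here. Column sums equalled the deposited totals in 110304 nuclei. Called doublets, 10.4% of nuclei, were kept.

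Counts were summed per library, and per library and deposited class (at least 20 nuclei). Sums were tested with edgeR 4.0.16 in R 4.3.3 (TMM, filterByExpr, quasi-likelihood; 4 groups in 1 fit; Benjamini-Hochberg over all genes of the fit, threshold 0.05). The alternatives were DESeq2 1.42.0, total-count scaling, no low-count filter, a replicate block, Malat1 left out of the library sizes, called doublets or nuclei under 1000 UMIs left out, each library left out, and clusters in place of classes. Replicate numbers go 1 to 1 with the deposited batch numbers in 11 of 11 libraries, so number and batch cannot be told apart. Sex sets replicate 1 apart and age replicate 4. Libraries of the same number deviated together from their group means (r from 0.542 to 0.849, 15 pairs, 14658 genes), and those of different number ranged from -0.790 to 0.409 (median -0.492, 30 pairs). The centring ties these values to each other.

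Exact permutation tests and plots were made in Python 3.11.15, with matplotlib 3.10.9 for drawing and pandas 2.3.3, numpy 2.4.6 and scipy 1.17.1 for the rest. Genes named are the 8 members, Malat1, Tfrc, list genes called in a fit and, for each member, the 3 genes most like it. The code was tested on simulated data. Library totals were at least 33235994 UMIs. Poisson intervals of pooled nuclei cover counting error only, whereas the intervals of log2 changes come from the fits over libraries.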

Additional observations from a re-analysis of the deposited data

How the results depend on the processing

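No member was called under any alternative, in all nuclei or within classes. Small estimates over all nuclei turned sign. With total counts, OTV:Malat1 gave Lrp1 0.044, Egfr 0.017, Scarb2 0.046 and Igf2r 0.013, and nonTV:Malat1 gave Igf2r 0.015. Scarb2 under OTV:Malat1 was 0.0011 without the filter and 0.0015 with the replicate block. Without called doublets Scarb2 was -0.0069 with the free ASO and Igf2r 0.0043 with nonTV:Malat1. With Malat1 out of the library sizes Igf2r was 0.00066 with nonTV:Malat1 and -0.0087 with the free ASO, where DESeq2 gave -0.00055.

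Leaving out each library in turn also turned signs. For OTV:Malat1 the ranges were -0.034 to 0.060 for Lrp1, -0.24 to 0.17 for Egfr, -0.036 to 0.064 for Scarb2 and -0.41 to 0.028 for Anxa2. For nonTV:Malat1 they were -0.092 to 0.00079 for Lrp1, -0.090 to 0.29 for Egfr, -0.011 to 0.14 for Scarb1, -0.23 to 0.029 for M6pr, -0.052 to 0.070 for Igf2r and -0.12 to 0.37 for Anxa2. For the free ASO they were -0.018 to 0.089 for Lrp1, -0.31 to 0.44 for Egfr, -0.024 to 0.10 for Scarb2, -0.50 to 0.0011 for M6pr, -0.076 to 0.080 for Igf2r and -0.095 to 0.28 for Anxa2.

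The replicate block raised the classes in which Malat1 was called from 3 to 6 for OTV:Malat1, as did DESeq2 (6), and from 0 to 1 for the free ASO; it changed no member's call. Leaving out each library gave 2 to 4 for OTV:Malat1. With clusters in place of classes 1 gene had a positive rho for the free ASO, against 2 with classes. With nuclei under 1000 UMIs left out, 5 of 8 genes kept their highest class; M6pr and Igf2r could not, since smooth muscle then had 1 library and was not ranked. Stab1, Anxa2 and M6pr had the fewest UMIs.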

Other observations

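Over all nuclei, replicate number 5 carried the lowest Egfr and the highest M6pr in each of the 4 dosing groups. Over all nuclei Egfr averaged 30.9 CPM in the 4 libraries of that number (27.6 to 32.2) and 45.2 CPM in the other 7 (39.5 to 52.9). The same held within astrocytes, at 272 CPM (263 to 282) against 346 CPM (308 to 405), but not in neurons, at 21.0 against 22.4 CPM. Of the genes tested this way, 7.54% of 20451 were lowest in replicate 5 of every group over all nuclei, and 4.86% of 12788 in astrocytes. Astrocytes also made up fewer of the nuclei there, 6.29 to 9.95% against 11.4 to 17.9%, and their part in the level over all nuclei was not tested.

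M6pr went the other way, at 18.4 against 13.8 CPM over all nuclei, 16.9 against 12.4 CPM in neurons and 36.6 against 20.1 CPM in oligodendrocytes, but not in astrocytes or pericytes. The shares of genes highest in replicate 5 of every group were 13.8%, 17.1% and 7.72% in the same sums. Lrp1 was likewise highest there in oligodendrocytes, at 52.7 against 35.5 CPM. The nuclei of this class outside clusters 3 and 5, which had more Lrp1 than cluster 3, numbered 66 to 98 in replicate 5 libraries and 21 to 55 in the others. Within cluster 3 Lrp1 was also highest in replicate 5 of every group, at 22.0 to 37.1 CPM against 9.63 to 20.8 CPM. The part of the mixture in the class level was not tested. In neurons Stab1 (1.32 against 0.981 CPM) and Scarb2 (32.8 against 30.7 CPM) were also highest in replicate 5 of every group. Batch and replicate number cannot be told apart in these libraries, while replicate 5 had the age of replicate 1 and the sex of replicate 4. The pattern was noticed after the values were seen.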
